A study of Mus musculus with 7 samples.

Results

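The 32 genes described here encode the glucose and lactate transporters, the enzymes and the main regulators of glycolysis and of the pentose phosphate pathway. Each was found by its gene symbol in the deposited expression table, where every symbol matched 1 of 16156 genes. Glycolysis with its transporters and regulators makes up 25 of them and the pentose phosphate pathway 7. They were counted by sequencing of total RNA in 7 libraries of mouse CD8 T cells, 3 labelled ACLY KO and 4 labelled WT (wild type). ACLY is ATP citrate lyase, which turns cytosolic citrate into acetyl-CoA. The cells were congenically marked OT-I cells, T cells with a transgenic receptor for an ovalbumin peptide, on the C57Bl/6 strain. They entered C57Bl/6 hosts 1 day ahead of infection with Listeria monocytogenes carrying ovalbumin and were recovered 6 days after infection. The labels give neither the age of the animals, nor how ACLY was deleted, nor whether libraries of a genotype came from different mice. The p-values below therefore measure the spread between these libraries, which may be technical.

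The libraries held 37473484 to 75586011 gene counts, and all 3 ACLY KO libraries were shallower than the shallowest WT library. Acly itself was at 262, 62.0 and 208 CPM (counts per 1e6 counts of the library, scaled by TMM) in ACLY KO replicates 1 to 3, against 276 to 414 CPM in WT, so the 3 libraries labelled ACLY KO lay below the 4 WT libraries but kept Acly counts. The V beta segments of the OT-I receptor family held 46.7%, 23.2% and 61.8% of the T cell receptor beta variable counts in ACLY KO replicates 1 to 3, against 84.5% in WT replicate 4 and 99.0% to 99.2% in the other WT libraries. Transcripts of 8 CD8 T cell markers summed to 2915, 7194 and 7045 CPM in ACLY KO replicates 1 to 3 and to 7153 to 8625 CPM in WT. All 12 B cell markers were measured and summed to 663 to 11040 CPM in ACLY KO and 246 to 683 CPM in WT, with Ms4a1 and Pax5 at 0 counts in some WT libraries. All 8 red cell markers summed to 240 to 47350 CPM in ACLY KO and 1.79 to 475 CPM in WT, and 8 of 10 macrophage markers to 55.1 to 1167 CPM in ACLY KO and 18.5 to 33.2 CPM in WT. WT replicate 4 stood apart by 16 cell cycle genes, which summed to 4358 CPM there, against 503 to 509 CPM in the other WT libraries and 444 to 1149 CPM in ACLY KO. What part these differences between libraries have in the values below was not tested. In bulk RNA, fewer cells of a type and less RNA per cell cannot be told apart.

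Glycolysis splits glucose into pyruvate in the cytosol. Its first stage spends ATP to phosphorylate the hexose and cleave it, and its second stage gains ATP while the trioses are oxidised. The pentose phosphate pathway branches off at glucose 6-phosphate: its oxidative arm makes NADPH, and its non-oxidative arm makes ribose 5-phosphate for nucleotides and returns sugars to glycolysis. Activated CD8 T cells are known to raise both pathways as they divide and to release much of the pyruvate as lactate.

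Most mRNAs of the pathway, 28 of 32, overlapped between ACLY KO and WT libraries, with 2 wholly below WT and 2 wholly above. Of all genes 9.03% lay wholly below WT and 9.46% wholly above, so the members stand near that background. Eno3, a minor enolase, was higher in every ACLY KO library than in any WT library. Pfkfb4, which sets the level of a phosphofructokinase activator, had its highest value in ACLY KO replicate 1. The transporter Slc2a3 and the phosphofructokinase Pfkp were lower in 2 of the 3 ACLY KO libraries than in any WT library. Slc2a1, Hk1, Hk2, Pgk1, Eno1, Slc16a1, Slc16a3 and Hif1a had that pattern too. How many of all genes have it was not counted. None of the 32 passed the quasi-likelihood test of edgeR at an adjusted p under 0.05, with adjustment over all genes (adjusted p = 0.123 to 0.999). Nor did any other of the 16156 genes (0%). At an unadjusted p under 0.05, 2 glycolysis members were lower (Slc2a3 and Pfkp) and 2 higher (Pfkfb4 and Eno3), and 1 pentose phosphate member was lower (Rpe) and 1 higher (Pgls). Over all genes 7.89% were lower and 11.0% higher at that p, so the members' 3 of 32 in each direction stand near that background.

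Levels of different genes are given as TPM, which divides by exon length, here the merged exons of all annotated transcripts of a gene. Merged exons are at least as long as any single transcript, so the order of genes depends on these lengths. TPM was not scaled by TMM, so the genotypes are compared by CPM in the other paragraphs. In ACLY KO replicates 1 to 3 Taldo1, for instance, was at 373, 264 and 269 CPM but at 411, 410 and 421 TPM. Ldha, the main lactate dehydrogenase, led with 730 ± 268 TPM in ACLY KO (SD, n = 3) and 736 ± 186 TPM in WT (SD, n = 4). Behind it came Aldoa with 489 ± 127 TPM in ACLY KO and 399 ± 63.8 TPM in WT, Taldo1 with 414 ± 6.34 and 344 ± 83.0 TPM, Txnip with 424 ± 138 and 381 ± 73.3 TPM, and Pkm with 301 ± 75.1 and 329 ± 55.3 TPM. Aldoa, Taldo1 and Txnip overlapped in both genotypes. Pkm overlapped them in WT, while in ACLY KO its highest library, at 354 TPM, lay below the lowest for Taldo1, at 410 TPM. At the other end were Hk2 with 2.75 ± 0.973 TPM in ACLY KO and 3.93 ± 1.28 TPM in WT, Rpia with 3.44 ± 0.840 and 3.16 ± 0.610 TPM, Slc16a3 with 1.87 ± 1.47 and 3.23 ± 0.409 TPM, Aldoc with 3.78 ± 2.68 and 2.06 ± 1.24 TPM, and Pfkfb4 with 6.25 ± 5.70 and 1.12 ± 0.679 TPM. The smallest count of any member was 14, for Aldoc in WT replicate 4, so all 32 were detected in every library.

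**Figure D1:**
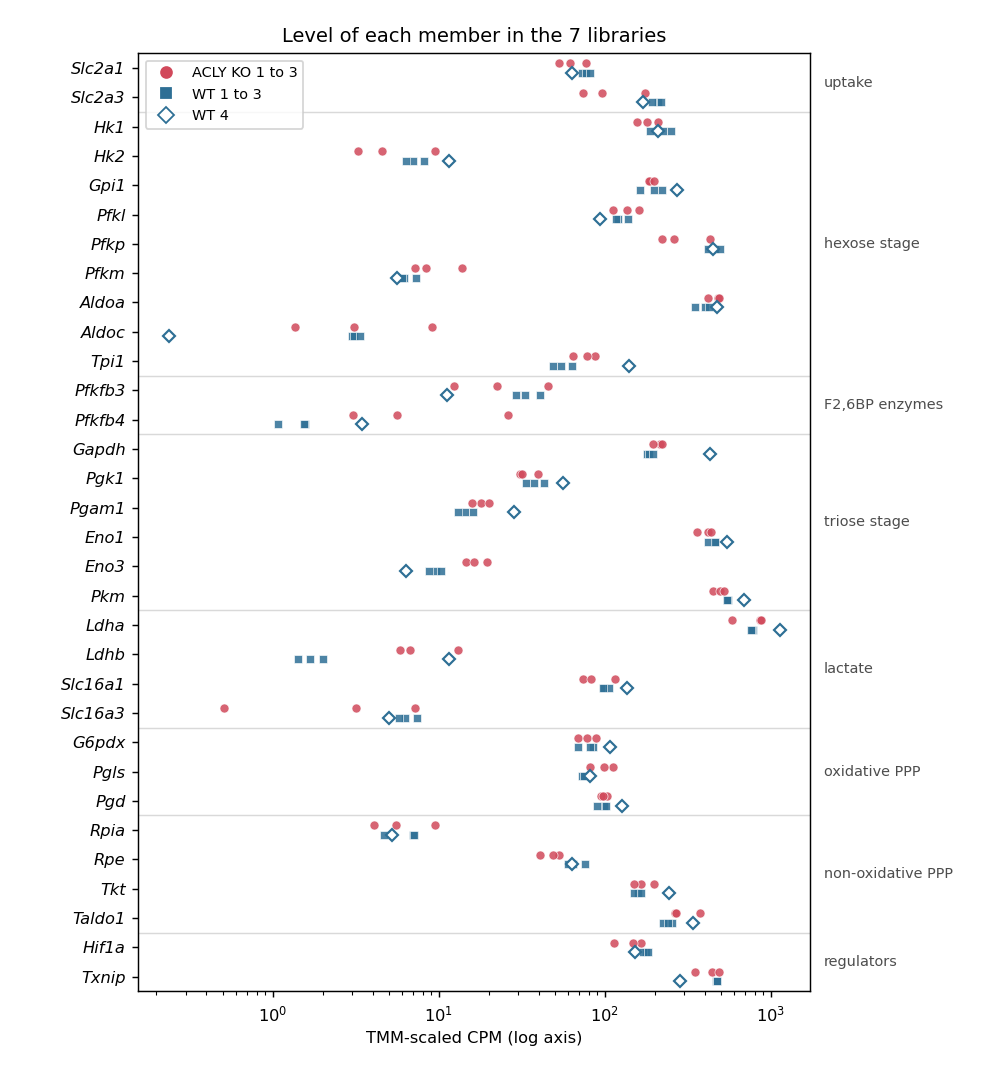
Level of each of the 32 members in the 7 libraries, as TMM-scaled CPM on a log axis, with ACLY KO libraries as circles above WT replicates 1 to 3 as squares and WT replicate 4 as open diamonds. Libraries of the genotypes overlap for 28 of 32 members, where of all genes 9.03% lie wholly below WT and 9.46% wholly above. WT replicate 4 sits apart from the other WT libraries for Gapdh, Ldha, Ldhb and Tpi1.

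The promoters of 4 members are shown, since these members carry the results that follow. Pfkfb4 and Eno3 are the higher pair, Pfkp takes a smaller share of its family in ACLY KO, and Ldha has the highest level of all and the most motif matches. Each sequence is the stretch of 250 bases before the transcription start from RefSeq (build GRCm38.p6), printed in the direction of transcription. Capitals mark ACGTG or GCGTG on either strand, the core letters bound by the hypoxia factor HIF-1. The palindrome CACGTG, an E box, holds ACGTG on both strands and counts as 2 matches.
Pfkfb4, chr9:108991652-108991901, plus strand: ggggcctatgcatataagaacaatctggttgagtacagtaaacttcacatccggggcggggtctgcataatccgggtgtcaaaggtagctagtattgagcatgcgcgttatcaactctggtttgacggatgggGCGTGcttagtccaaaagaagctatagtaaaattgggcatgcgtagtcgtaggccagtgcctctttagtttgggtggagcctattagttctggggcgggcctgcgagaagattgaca
Eno3, chr11:70656926-70657175, plus strand: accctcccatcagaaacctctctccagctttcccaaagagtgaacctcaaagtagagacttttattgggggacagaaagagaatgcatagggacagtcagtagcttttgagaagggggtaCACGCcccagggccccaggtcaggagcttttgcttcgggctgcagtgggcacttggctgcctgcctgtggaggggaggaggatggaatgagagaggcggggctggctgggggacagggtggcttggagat
Pfkp, chr13:6648772-6649021, minus strand: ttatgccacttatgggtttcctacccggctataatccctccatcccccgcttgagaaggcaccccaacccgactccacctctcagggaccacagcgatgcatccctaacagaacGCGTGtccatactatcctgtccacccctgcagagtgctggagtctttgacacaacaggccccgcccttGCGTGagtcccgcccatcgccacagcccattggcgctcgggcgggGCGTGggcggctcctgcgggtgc
Ldha, chr7:46845554-46845803, plus strand: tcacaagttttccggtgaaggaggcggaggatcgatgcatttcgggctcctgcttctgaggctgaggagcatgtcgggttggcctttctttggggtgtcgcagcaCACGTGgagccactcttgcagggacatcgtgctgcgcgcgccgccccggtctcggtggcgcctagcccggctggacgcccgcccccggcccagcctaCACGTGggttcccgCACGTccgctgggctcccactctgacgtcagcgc
The Ldha window shown holds 5 matches, 4 of them in 2 E boxes that begin 145 and 48 bases before the start. A second Ldha window in the table, at a later start, holds 1 match and no E box. Pfkp has 3 matches, and Pfkfb4 and Eno3 have 1 each. Windows were found for 31 of the 32 members, 44 windows in all, since some genes have several starts. Of these 36 (81.8%) held a HIF-1 core, against 38.6% of all 32851 windows of the same length, and 5 (11.4%) held an E box, against 6.02%. Some windows of a gene overlap, as for Aldoa, Eno1 and Pfkm, so the same match can be counted more than once. Counted by gene, 28 of the 31 members held a HIF-1 core in some window, and no share by gene was computed over all genes. The GC box GGGCGG was in 26 member windows (59.1%), against 32.7% of all windows. Base composition was not matched, and the members with a match include both those higher and those lower in ACLY KO, so a match here is a description of the letters and of nothing more.

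Glucose enters T cells through the facilitative transporters encoded by Slc2a1 (GLUT1) and Slc2a3 (GLUT3). Slc2a3 (chromosome 6, 122727809 to 122801640 in mm10, minus strand) was at 96.3, 74.0 and 175 CPM in ACLY KO replicates 1 to 3, against 208, 193, 218 and 169 CPM in WT replicates 1 to 4. ACLY KO replicates 1 and 2 lay well below all WT libraries, while replicate 3 lay above WT replicate 4. The log2 difference was -0.77 ± 0.29 (SE; 95% interval -1.44 to -0.11; edgeR adjusted p = 0.209). Without ACLY KO replicate 3 it was -1.21 and passed (edgeR adjusted p = 0.0462), in a setting that called 47 of all genes lower and 142 higher. Without ACLY KO replicate 2 it was -0.54 (edgeR adjusted p = 0.383), and without ACLY KO replicate 1 -0.66 (edgeR adjusted p = 0.313). With all libraries limma voom with quality weights, which down-weights deviant libraries, called Slc2a3 lower (log2 -0.97, adjusted p = 0.0389). Of all genes limma voom called 272 lower and 860 higher. ACLY KO replicate 3 is also the ACLY KO library with the largest OT-I receptor share, 61.8%, whose part in this was not tested. Slc2a1 was at 53.1, 61.5 and 77.2 CPM in ACLY KO, against 73.2, 76.5, 80.99 and 63.5 CPM in WT. Its libraries overlapped, with a log2 difference of -0.20 ± 0.16 (SE; interval -0.58 to 0.18).

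The balance between the transporters was compared as a share. Slc2a3 took 64.4%, 54.6% and 69.4% of the counts of the pair in ACLY KO, against 74.0%, 71.6%, 72.9% and 72.7% in WT. The 4 WT shares lay close together, and the 3 ACLY KO shares lay below all of them. Such a share compares genes inside a library, so it does not depend on how libraries are scaled. The mean difference was -9.98 percentage points (exact permutation test over the 7 libraries, two-sided, p = 0.0286, which is the lowest value possible with 35 splits). Adjusted by Benjamini-Hochberg over the 8 isoenzyme shares tested, p was 0.0762.

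Hexokinases trap glucose as glucose 6-phosphate. Hk1 was at 156, 209 and 180 CPM in ACLY KO, against 222, 187, 250 and 209 CPM in WT, a log2 difference of -0.26 ± 0.15 (SE). Hk2, the isoenzyme induced in growing cells, was at 9.46, 3.28 and 4.58 CPM in ACLY KO, against 6.99, 6.35, 8.10 and 11.6 CPM in WT. It made up 1.55% to 5.73% of the counts of the pair in ACLY KO and 3.05% to 5.23% in WT, so Hk1 held nearly all of them in both. Gpi1, the isomerase that makes fructose 6-phosphate, was at 187, 185 and 197 CPM in ACLY KO, inside the 164 to 271 CPM of WT.

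Phosphofructokinase commits the hexose to glycolysis, and its 3 subunit genes had differences of both signs, none past the adjusted threshold. Pfkp (chromosome 13, 6579768 to 6648777, minus strand), whose promoter is printed above, was at 222, 260 and 427 CPM in ACLY KO, against 459, 417, 495 and 446 CPM in WT. As for Slc2a3, ACLY KO replicates 1 and 2 were far below WT and replicate 3 was within the WT range. The log2 difference was -0.58 ± 0.23 (SE; interval -1.12 to -0.04; edgeR adjusted p = 0.234), or -0.91 without ACLY KO replicate 3 (edgeR adjusted p = 0.0530). Exons of Pfkp overlap Pitrm1 on the other strand over 5.58% of their length, so some counts could be misassigned. Pfkl was at 111, 137 and 160 CPM in ACLY KO, against 120, 116, 137 and 93.4 CPM in WT (log2 0.22 ± 0.18, SE). Pfkm was at 7.19, 13.8 and 8.42 CPM in ACLY KO, against 6.21, 7.31, 6.03 and 5.58 CPM in WT (log2 0.64 ± 0.31, SE), and ACLY KO replicate 1 lay inside the WT range.

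Pfkp held 65.2%, 63.4% and 71.7% of phosphofructokinase counts in ACLY KO, against 78.5%, 77.1%, 77.6% and 81.8% in WT. The groups did not overlap, and the WT shares again lay close together. The mean difference was -12.0 percentage points (exact permutation p = 0.0286; 0.0762 adjusted over the 8 shares). Counted per exon length, Pfkp held 48.5% ± 5.46 in ACLY KO (SD, n = 3) and 63.7% ± 2.95 in WT (SD, n = 4). The merged exon lengths used were 13401 bases for Pfkp, 6675 for Pfkl and 3340 for Pfkm. The level of this share depends on those lengths.

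Aldolase cuts the 6-carbon sugar and triose phosphate isomerase interconverts the products. Aldoa, the main aldolase, was at 417, 481 and 486 CPM in ACLY KO, against 402, 350, 421 and 470 CPM in WT (log2 0.17 ± 0.14, SE; interval -0.17 to 0.50). Aldoc was a trace, with 9.14, 1.37 and 3.10 CPM in ACLY KO, against 3.02, 3.10, 3.34 and 0.237 CPM in WT. Its log2 difference of 0.90 ± 0.91 (SE) became -0.12 without ACLY KO replicate 1, the library richest in red cell and B cell transcripts. Tpi1 was at 87.1, 63.9 and 78.5 CPM in ACLY KO, against 54.7, 63.8, 49.0 and 139 CPM in WT. The ACLY KO libraries exceeded WT replicates 1 to 3, ACLY KO replicate 2 only just, and WT replicate 4 exceeded every other library. The log2 difference was -0.0033 ± 0.37 (SE), or 0.45 without WT replicate 4.

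The enzymes encoded by Pfkfb3 and Pfkfb4 make and break down fructose 2,6-bisphosphate, the strongest activator of phosphofructokinase. Pfkfb4 (chromosome 9, 108991778 to 109032228, plus strand) was at 26.0, 3.05 and 5.60 CPM in ACLY KO, against 1.57, 1.08, 1.54 and 3.48 CPM in WT. ACLY KO replicate 1 was far above the rest, and ACLY KO replicate 2 lay just below WT replicate 4. The log2 difference was 2.59 ± 0.78 (SE; interval 0.77 to 4.41; edgeR adjusted p = 0.146), and DESeq2 called it higher (adjusted p = 0.00926). DESeq2 called 6.81% of genes higher and 3.43% lower, and among the members 2 higher, Pfkfb4 and Eno3, and 0 lower. It gave no adjusted p for Ldhb. ACLY KO replicate 1 also had the largest B cell and red cell marker sums, 11040 and 47350 CPM, whose part in this value was not tested. Without that library the log2 difference of Pfkfb4 was 1.17, and without WT replicate 4 it was 3.04. Pfkfb3 was at 45.5, 12.3 and 22.5 CPM in ACLY KO, against 32.9, 29.3, 40.6 and 11.2 CPM in WT, with no direction that held (log2 -0.09 ± 0.53, SE). Pfkfb4 made up 36.4%, 19.8% and 19.9% of the pair's counts in ACLY KO, against 4.56%, 3.55%, 3.65% and 23.6% in WT. WT replicate 4 thus resembled the ACLY KO libraries in this share, and the difference of 16.5 percentage points did not pass (exact permutation p = 0.114; 0.183 adjusted).

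**Figure D2:**
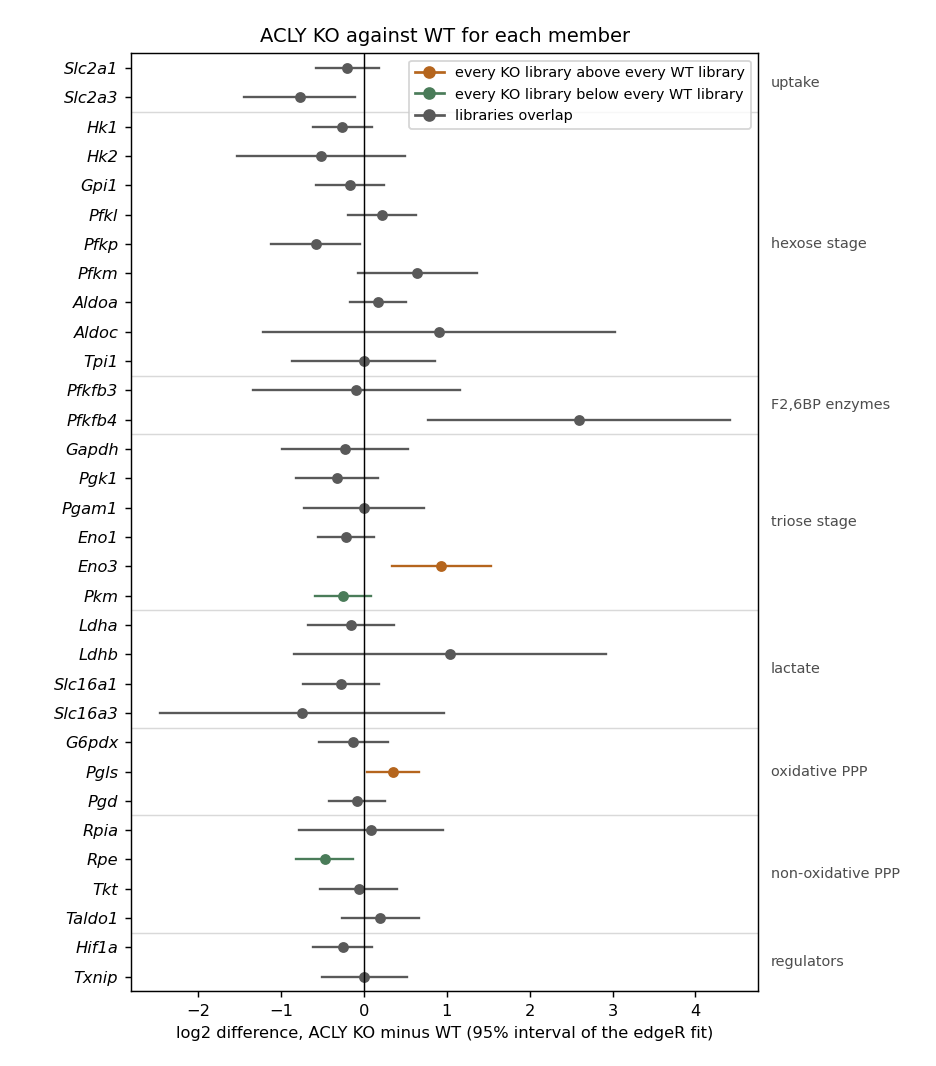
Log2 difference of ACLY KO minus WT for each member with the 95% interval of the edgeR fit, coloured by whether the libraries of the genotypes overlap. Eno3 and Pgls lie wholly above WT and Pkm and Rpe wholly below, while the widest intervals belong to scarce members such as Aldoc, Ldhb, Pfkfb4 and Slc16a3.

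The second stage of glycolysis runs from glyceraldehyde 3-phosphate to pyruvate. Gapdh, the oxidising step, was at 216, 221 and 196 CPM in ACLY KO, against 179, 184, 196 and 430 CPM in WT. ACLY KO replicates 1 and 2 exceeded WT replicates 1 to 3, while ACLY KO replicate 3 was level with WT replicate 3 (196 and 195.8 CPM). WT replicate 4 was far above, and the log2 difference of -0.23 ± 0.33 (SE) became 0.18 without WT replicate 4. Pgk1, the first ATP-yielding kinase, was at 30.7, 31.7 and 39.4 CPM in ACLY KO, against 37.7, 42.9, 33.6 and 55.7 CPM in WT. Pgam1, phosphoglycerate mutase, was at 18.0, 20.1 and 15.9 CPM in ACLY KO, against 14.4, 13.04, 16.1 and 28.5 CPM in WT. Near-identical copies elsewhere in the genome were also counted, 14 for Gapdh with 14.5% as many counts in all and 2 for Eno1 with 4.27%. How reads shared with copies were assigned is not given, so the error in the levels of Gapdh and Eno1 is not known.

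Pkm, which encodes pyruvate kinase, was at 451, 496 and 521 CPM in ACLY KO, against 546, 552, 540 and 692 CPM in WT. Every ACLY KO library lay below every WT library, by a small margin, and the log2 difference was -0.25 ± 0.15 (SE; interval -0.59 to 0.09; edgeR adjusted p = 0.410). Gene counts do not tell its M1 and M2 splice forms apart, and its exons overlap Gm49759 on the same strand over 15.3% of their length. Pkm and Rpe were the 2 members of 32 wholly below WT, where 9.03% of all genes were, and Eno3 and Pgls the 2 wholly above, where 9.46% were, so these counts stand near the background.

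Enolase makes phosphoenolpyruvate. The ubiquitous Eno1 was at 360, 416 and 438 CPM in ACLY KO, against 459, 417, 460 and 543 CPM in WT (log2 -0.21 ± 0.14, SE). Eno3 (chromosome 11, 70657202 to 70662513, plus strand), the muscle form, was at 19.6, 14.7 and 16.3 CPM in ACLY KO, against 9.68, 8.75, 10.4 and 6.39 CPM in WT. The lowest ACLY KO library exceeded the highest WT library. Its log2 difference was 0.94 ± 0.26 (SE; interval 0.34 to 1.53), the smallest adjusted p of the members (0.123 in edgeR), and DESeq2 called it higher (adjusted p = 0.00366). It stayed between 0.71 and 1.03 in all alternatives run. Eno3 took 5.15%, 3.41% and 3.59% of enolase counts in ACLY KO, against 2.07%, 2.05%, 2.21% and 1.16% in WT, again without overlap (exact permutation p = 0.0286; 0.0762 adjusted).

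Lactate dehydrogenase recycles NAD by turning pyruvate into lactate. Ldha (chromosome 7, 46841475 to 46855627, plus strand) was at 583, 862 and 868 CPM in ACLY KO, against 780, 770, 760 and 1127 CPM in WT. ACLY KO replicate 1 was lowest and WT replicate 4 highest, and the other 5 libraries lay between 760 and 868 CPM. The log2 difference was -0.16 ± 0.22 (SE; interval -0.67 to 0.36). Ldhb, the heart-type subunit, was scarce and varied widely: it was at 6.73, 12.99 and 5.81 CPM in ACLY KO, against 1.42, 1.68, 2.02 and 11.5 CPM in WT. All ACLY KO libraries were above WT replicates 1 to 3, but WT replicate 4 was as high as they were. The log2 difference was 1.04 ± 0.81 (SE; edgeR adjusted p = 0.545). It was 2.32 without WT replicate 4 (edgeR adjusted p = 0.0622), and limma voom with quality weights gave 2.43 and called it (adjusted p = 0.0150). Ldhb made up 1.14%, 1.49% and 0.665% of the pair in ACLY KO, against 0.182%, 0.218%, 0.265% and 1.01% in WT (exact permutation p = 0.0857; 0.171 adjusted).

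Lactate leaves the cell by the monocarboxylate transporters encoded by Slc16a1 (MCT1) and Slc16a3 (MCT4). Slc16a1 was at 115, 73.6 and 82.1 CPM in ACLY KO, against 98.9, 106, 96.8 and 135 CPM in WT, with overlap (log2 -0.27 ± 0.20, SE). Slc16a3 was at 7.24, 0.512 and 3.17 CPM in ACLY KO, against 7.42, 6.24, 5.76 and 5.05 CPM in WT. ACLY KO replicate 2, with 22 counts, was far below any WT library, while ACLY KO replicate 1 was within the WT range (log2 -0.75 ± 0.74, SE).

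**Figure D3:**
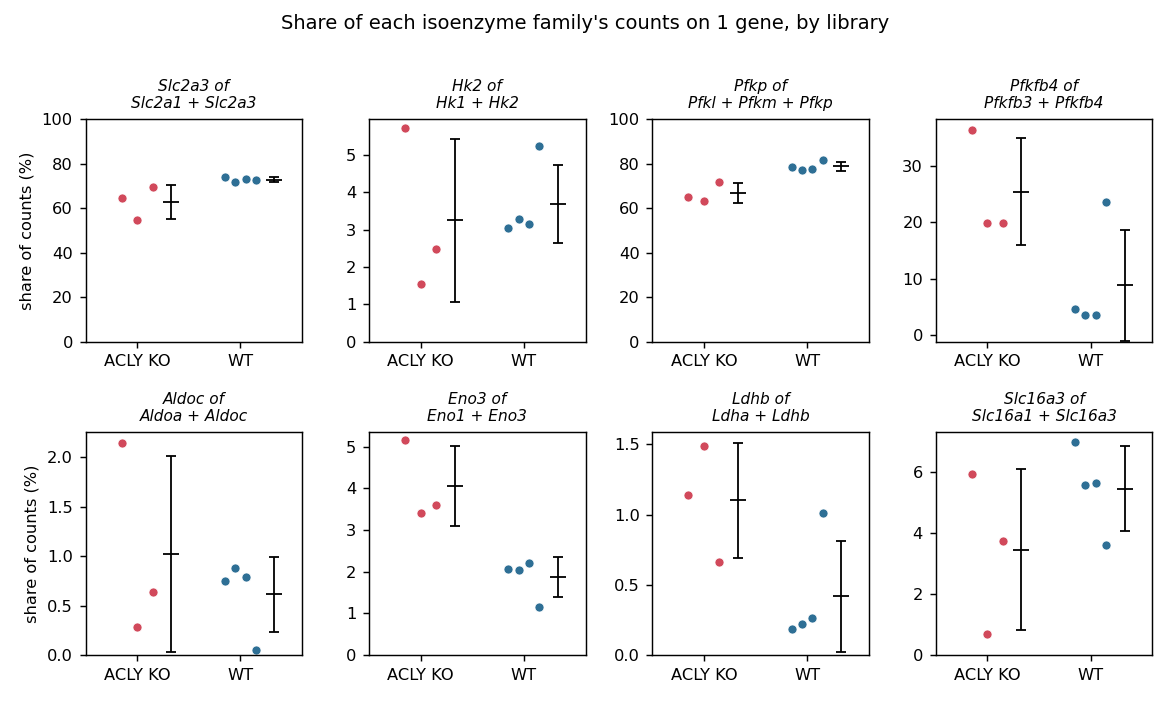
Share of an isoenzyme family's counts on 1 gene, in percent, for 8 families, with a point per library and bars for the mean and SD (ACLY KO, n = 3, left; WT, n = 4, right). The shares of Slc2a3 and Pfkp lie lower and that of Eno3 higher in all ACLY KO libraries, while the other 5 families overlap. How often shares among other genes have no overlap was not counted.

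Of the 8 isoenzyme shares, 3 had no overlap between genotypes (Slc2a3, Pfkp and Eno3). How often shares among other genes have no overlap was not counted, so this count has no background. None of the 8 passed after adjustment, where the 7 libraries allow an unadjusted p no smaller than 0.0286. For the remaining 5 the exact permutation p was 0.0857 to 0.743. The Slc16a3 share was 5.92%, 0.691% and 3.72% in ACLY KO, against 6.98%, 5.56%, 5.62% and 3.61% in WT, and the Aldoc share did not exceed 2.15% in any library.

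In the oxidative arm of the pentose phosphate pathway the genotypes overlapped for the NADPH-making steps and not for the step between them. G6pdx, the NADPH-making entry enzyme, was at 69.2, 77.9 and 89.0 CPM in ACLY KO, against 85.4, 69.1, 81.2 and 108 CPM in WT (log2 -0.13 ± 0.18, SE; interval -0.54 to 0.29), and its exons overlap Ikbkg on the other strand over 13.6% of their length. Pgd, the second NADPH-making enzyme, was at 104, 94.2 and 98.1 CPM in ACLY KO, against 98.5, 90.1, 101 and 128 CPM in WT (log2 -0.08 ± 0.14, SE; interval -0.42 to 0.25). Pgls, the lactonase between them, was at 113, 81.6 and 98.7 CPM in ACLY KO, against 77.4, 72.9, 75.0 and 81.1 CPM in WT. Each ACLY KO library was above each WT library, though ACLY KO replicate 2 exceeded WT replicate 4 only narrowly (log2 0.35 ± 0.14, SE; edgeR adjusted p = 0.224). Exons of Pgls (chromosome 8, 71592176 to 71601092) overlap Fam129c, a gene of B cells on the same strand, over 20.6% of their length. Fam129c was at 65.1, 10.4 and 11.9 CPM in ACLY KO, against 7.34, 5.36, 4.61 and 10.7 CPM in WT, so the highest Pgls and Fam129c values fall in the same library. Its part in the Pgls values was not tested. Without ACLY KO replicate 1 the log2 difference of Pgls was 0.23.

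In the non-oxidative arm Rpe, the epimerase of ribulose 5-phosphate, was at 53.2, 40.5 and 48.6 CPM in ACLY KO, against 64.5, 75.7, 59.9 and 63.7 CPM in WT. The groups did not overlap, and the log2 difference was -0.48 ± 0.15 (SE; interval -0.82 to -0.13; edgeR adjusted p = 0.155). Exons of Rpe (chromosome 1, 66700831 to 66719805) overlap Kansl1l on the other strand over 17.9% of their length. Kansl1l was at 20.1, 19.7 and 11.5 CPM in ACLY KO and at 10.95 to 13.5 CPM in WT, and its part in the Rpe values was not tested. Rpia, which isomerises the same sugar to ribose 5-phosphate, was at 9.51, 4.07 and 5.55 CPM in ACLY KO, against 6.97, 4.71, 7.12 and 5.26 CPM in WT, and it shares a stretch of at least 200 bases with 6 other measured genes.

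The transferases that return pentoses to glycolysis were abundant and overlapped. Tkt, transketolase, was at 165, 151 and 198 CPM in ACLY KO, against 158, 150, 165 and 242 CPM in WT (log2 -0.06 ± 0.20, SE). Taldo1, transaldolase, was at 373, 264 and 269 CPM in ACLY KO, against 254, 222, 239 and 340 CPM in WT (log2 0.20 ± 0.20, SE). All 3 ACLY KO libraries exceeded WT replicates 1 to 3 for Taldo1 and 2 of 3 did for Tkt. For Tkt, ACLY KO replicate 1 did so only just, at 165.3 CPM against 164.8 CPM in WT replicate 3. WT replicate 4 was high for both.

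The 2 regulators did not differ beyond the spread between libraries. Hif1a, the oxygen-regulated subunit of HIF-1 that turns on glycolytic genes, was at 165, 113 and 147 CPM in ACLY KO, against 176, 169, 181 and 152 CPM in WT (log2 -0.26 ± 0.15, SE; interval -0.61 to 0.10). Txnip, an inhibitor of glucose uptake that is induced by glucose, was at 348, 444 and 483 CPM in ACLY KO, against 468, 475, 471 and 285 CPM in WT (log2 0.0022 ± 0.22, SE), and its exons overlap Gm15441 on the other strand over 19.4% of their length. WT replicates 1 to 3 lay close together, and WT replicate 4 had the lowest Txnip of all libraries.

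Summed over the 25 glycolysis members, mRNA came to 3746, 4211 and 4639 CPM in ACLY KO replicates 1 to 3, against 4563, 4360, 4702 and 5363 CPM in WT replicates 1 to 4. The 7 pentose phosphate members summed to 887, 713 and 808 CPM in ACLY KO, against 745, 685, 728 and 968 CPM in WT. Of the glycolysis members 16 had a log2 difference below 0 and 9 above, with a median of -0.17. Of the pentose phosphate members 4 were below and 3 above, with a median of -0.06. Over all genes 50% were below 0, with a median close to 0 (-3.6e-05).

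Within WT, replicate 4 stood apart from the other libraries for many members. It had the highest WT value for 18 of the 32 members and the lowest for 10, where it was highest for 38.0% and lowest for 40.8% of all genes. The 5 pentose phosphate members it exceeded in were G6pdx, Pgls, Pgd, Tkt and Taldo1, and none of the 7 was lowest there. Against the mean of WT replicates 1 to 3 its level was 6.72-fold for Ldhb, 2.49-fold for Tpi1 and Pfkfb4, 2.31-fold for Gapdh and 1.96-fold for Pgam1. It was 0.0753-fold for Aldoc, 0.328-fold for Pfkfb3 and 0.604-fold for Txnip. The cell cycle sum of 4358 CPM in that library stands beside these values, and its part in them was not tested.

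**Figure D4:**
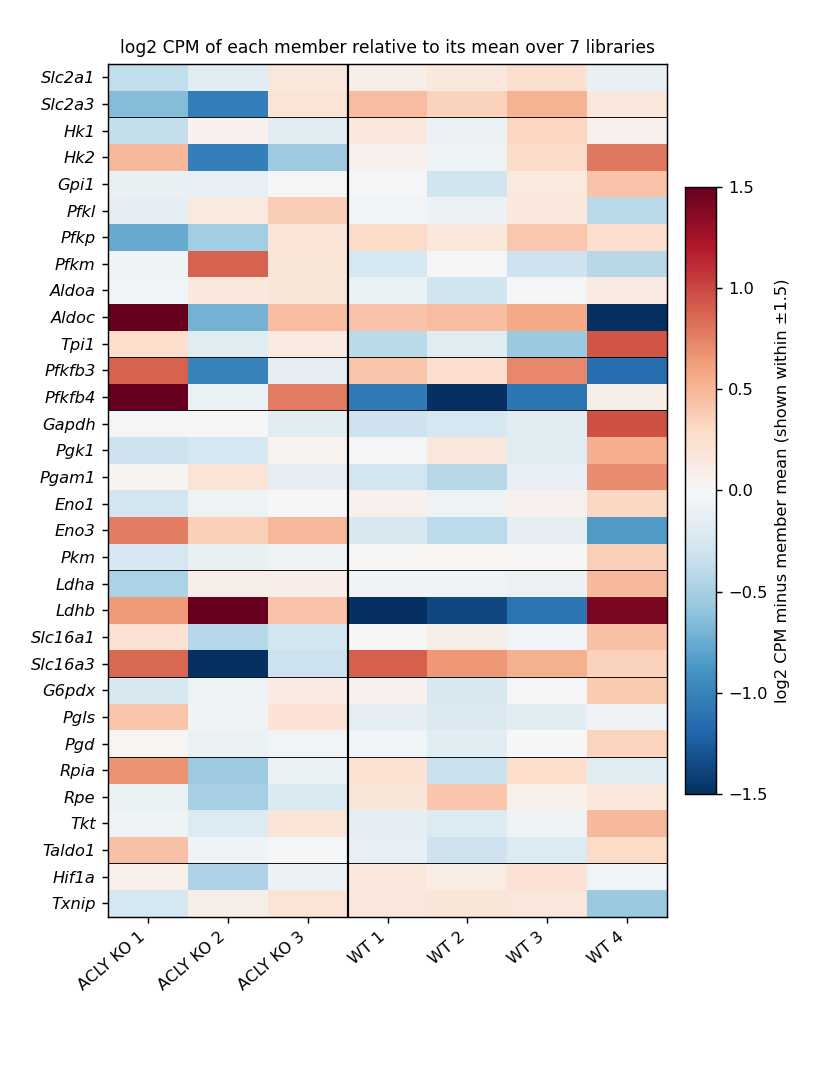
Log2 CPM of each member minus its mean over the 7 libraries, with ACLY KO libraries left of the black line and WT right of it, and colours limited at 1.5 in either direction. WT replicate 4 is high for Gapdh, Tpi1, Ldha and Ldhb and low for Aldoc and Pfkfb3, and ACLY KO replicate 1 is high for Aldoc and Pfkfb4.

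Genes around the pathway came from 5 lists, and none of their members passed edgeR's adjusted threshold. In the list of other isoenzymes, 14 of 24 were measured, 0 lower and 4 higher at an unadjusted p under 0.05, where 7.89% of all genes were lower and 11.0% higher. The median log2 difference of the list was -0.115. Among them Bpgm, which makes the red cell regulator 2,3-bisphosphoglycerate, was at 1373, 76.6 and 25.6 CPM in ACLY KO, against 18.3, 37.7, 21.8 and 22.4 CPM in WT. The red cell marker sums were 47350, 6576 and 240 CPM in the same ACLY KO libraries and 7.78, 475, 1.79 and 44.4 CPM in WT. Their part in Bpgm was not tested. Hk3, a hexokinase of myeloid cells, was at 14.9, 1.82 and 11.5 CPM in ACLY KO, against 1.66, 1.37, 1.84 and 0.322 CPM in WT, beside macrophage marker sums of 562, 55.1 and 1167 CPM in ACLY KO and 18.5 to 33.2 CPM in WT, whose part was not tested either.

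In the sugar branches, 25 of 25 listed genes were measured, with 4 lower and 3 higher at an unadjusted p under 0.05 (all genes 7.89% and 11.0%) and a median log2 difference of 0.06. Khk, which phosphorylates fructose, was at 15.02, 17.8 and 23.8 CPM in ACLY KO, against 9.26, 9.42, 8.08 and 5.27 CPM in WT (log2 1.24 ± 0.29, SE; edgeR adjusted p = 0.0943). Pgm2, a phosphopentomutase that links nucleosides to the pathway, was at 37.7, 52.1 and 35.7 CPM in ACLY KO, against 64.0, 64.2, 65.7 and 86.1 CPM in WT (log2 -0.74 ± 0.19, SE; edgeR adjusted p = 0.108). Neither gene's groups overlapped, and DESeq2 called Khk higher and Pgm2 lower (adjusted p = 0.00125 and 0.0163).

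Of the HIF-1 pathway and its targets, 19 of 21 listed symbols were measured. The list names Ero1a also by its older symbol Ero1l, so that symbol is not a missing gene. At an unadjusted p under 0.05, 2 were lower and 2 higher, which is near the 7.89% and 11.0% of all genes. Their median log2 difference was -0.04. Ero1a, an oxidase of the endoplasmic reticulum, was at 43.9, 31.2 and 27.7 CPM in ACLY KO, against 61.7, 58.0, 58.8 and 53.1 CPM in WT (log2 -0.76 ± 0.18, SE; edgeR adjusted p = 0.0983). Bnip3, a mitophagy receptor, went the other way, with 5.80, 4.03 and 3.40 CPM in ACLY KO, against 1.66, 2.06, 1.67 and 0.967 CPM in WT (log2 1.47 ± 0.40, SE; edgeR adjusted p = 0.120). DESeq2 called both (adjusted p = 0.00578 and 0.00783).

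Of the genes of glucose sensing and growth control, 16 of 18 were measured, with 5 lower and 2 higher at an unadjusted p under 0.05 (all genes 7.89% and 11.0%), while their median log2 difference was 0.04. Rptor, the scaffold of the growth kinase complex mTORC1, was at 56.8, 40.5 and 51.8 CPM in ACLY KO, against 98.0, 88.2, 96.0 and 67.0 CPM in WT (log2 -0.81 ± 0.19, SE; edgeR adjusted p = 0.0891; DESeq2 adjusted p = 0.00394). Mlx, the partner of the glucose-sensing factors that drive Txnip, was at 51.1, 49.1 and 68.2 CPM in ACLY KO, against 80.6, 81.7, 78.5 and 81.2 CPM in WT (log2 -0.52 ± 0.15, SE; edgeR adjusted p = 0.128; DESeq2 adjusted p = 0.0425). In both, the ACLY KO libraries lay wholly below WT, while Txnip itself overlapped.

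Of the pyruvate and lactate partners, 11 of 12 were measured, with 2 lower and 2 higher at an unadjusted p under 0.05, against 7.89% and 11.0% of all genes, and with a median log2 difference of 0.36. Mpc1, a subunit of the mitochondrial pyruvate carrier, was at 15.8, 13.4 and 13.1 CPM in ACLY KO, against 20.9, 26.1, 16.7 and 23.4 CPM in WT, without overlap (log2 -0.63 ± 0.22, SE; edgeR adjusted p = 0.190). Mdh1, the cytosolic malate dehydrogenase, was at 266, 268 and 305 CPM in ACLY KO, against 359, 469, 299 and 388 CPM in WT (log2 -0.44 ± 0.17, SE; edgeR adjusted p = 0.230). ACLY KO replicate 3 overlapped WT replicate 3 there.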

How the data were processed

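Total RNA of 7 libraries was sequenced. The tools listed in the submitters' processing notes are Trim Galore 0.6.0, STAR 2.7.8 and DESeq2, with mm10 as the build. How genes were counted (annotation, strand) and filtered is not given in the sources used here. Raw counts of 16156 genes were deposited by the authors, who also deposited a table of log2 CPM, which equalled log2 CPM recomputed here (TMM, prior count 2) within 4.99e-09.

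CPM, fits and shares were computed from the deposited counts with R 4.3.3, edgeR 4.0.16 (quasi-likelihood test across all genes, genotype as the only term, Benjamini-Hochberg adjustment, threshold 0.05; filterByExpr removed 0 genes), DESeq2 1.42.0 and limma 3.58.1. SE and 95% intervals come from the edgeR fit. Isoenzyme shares were tested by exact permutation over libraries. Exon lengths, overlaps and coordinates are from GENCODE M21, where 16141 gene identifiers were found, and promoters from RefSeq (GRCm38.p6). Exon lengths are of the merged exons of all transcripts of a gene. Copies are other measured genes whose transcripts align with a member's over at least 200 bases at 95% identity or more. DESeq2 gave an adjusted p for 15159 genes. Scripts were checked on simulated data.

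The members, lists and tests were chosen with earlier results of these data known. Named are all members, Acly, and in each list of neighbouring genes the 2 with the smallest p at a mean log2 CPM of at least 1; Fam129c, Kansl1l, Pitrm1, Ikbkg, Gm49759 and Gm15441 were named after their values were seen. Alternatives were other scalings and filters, DESeq2, limma voom, a replicate block, and libraries left out.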

Additional observations from a re-analysis of the deposited data

Results flagged for a closer look

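WT replicate 4 was far from the other 3 WT libraries for 8 of the 32 members and for 5 of the 8 isoenzyme shares, by a gap past Dixon's 95% critical value for 4 samples. Chance flags about 1 in 20 groups, but the 13 flags, all on this library, are not independent. They come from the same 4 libraries, and Aldoc and Ldhb are flagged both by level and by share. Flags were not counted over all genes, where WT replicate 4 was the highest WT library for 38.0% and the lowest for 40.8%. Among members above the others it had 430 CPM of Gapdh (179 to 196 CPM in the others), 139 CPM of Tpi1 (49.0 to 63.8 CPM), 692 CPM of Pkm (540 to 552 CPM), 1127 CPM of Ldha (760 to 780 CPM), 11.5 CPM of Ldhb (1.42 to 2.02 CPM) and 242 CPM of Tkt (150 to 165 CPM). Below the others it had 285 CPM of Txnip (468 to 475 CPM) and 0.237 CPM of Aldoc (3.02 to 3.34 CPM). Its shares were 5.23% for Hk2 (3.05% to 3.28%), 23.6% for Pfkfb4 (3.55% to 4.56%), 0.0504% for Aldoc (0.746% to 0.877%), 1.16% for Eno3 (2.05% to 2.21%) and 1.01% for Ldhb (0.182% to 0.265%). The summed cell cycle genes of the same library were at 4358 CPM, and their part in these values was not tested.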

How the results depend on the processing

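No gene passed edgeR's adjusted threshold with all libraries. DESeq2 called 520 genes lower and 1032 higher, limma voom 272 and 860, and edgeR without both ACLY KO replicate 1 and WT replicate 4 668 and 864. Leaving out 1 library at a time gave 0 to 48 lower and 0 to 142 higher. At an unadjusted p under 0.05, the 2 lower glycolysis members became 1 with upper-quartile scaling, 4 with voom, 4 without both libraries and 0 to 4 without 1 library, and the 2 higher became 4, 5 and 2 to 4 with voom, without both and without 1. The single lower and higher pentose phosphate members became 0 and 0 under the replicate block, and the higher 0 without both libraries and 0 to 1 without 1.

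Of 32 members, 21 kept their sign in all 15 settings. The others were small or rested on 1 library, and the cause was not tested. Tpi1 turned to 0.016 with median-of-ratios scaling and with DESeq2, 0.040 with upper-quartile scaling, 0.42 with voom, 0.45 under the block and 0.37 without both libraries. With voom Gapdh was 0.20, Rpia -0.24, Tkt 0.090 and Txnip -0.13. Under the block Gapdh was 0.18, G6pdx 0.0011, Pgd 0.031, Rpia -0.040, Tkt 0.11, Txnip -0.16 and the Hk2 share difference 0.0958 percentage points. Without both libraries Aldoc was -0.47, Gapdh 0.18, Ldha 0.19, G6pdx 0.11, Pgd 0.015, Rpia -0.36, Tkt 0.17, Txnip -0.0033 and the Aldoc share difference -0.345 points. Without 1 library the log2 ranges were -0.12 to 1.33 for Aldoc, -0.17 to 0.45 for Tpi1, -0.71 to 0.25 for Pfkfb3, -0.36 to 0.18 for Gapdh, -0.13 to 0.32 for Pgam1, -0.25 to 0.0089 for Ldha, -0.22 to 0.0086 for G6pdx, -0.15 to 0.034 for Pgd, -0.32 to 0.32 for Rpia, -0.18 to 0.13 for Tkt and -0.14 to 0.13 for Txnip. The share differences ranged from -1.66 to 0.43 points for Hk2 and from -0.156 to 0.775 for Aldoc.

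The labels do not say whether replicate numbers pair the libraries. Deviations of same-numbered libraries correlated at -0.0389, -0.0285 and 0.136, and those of differently numbered libraries at -0.0993 to 0.116. These values cannot decide it, since the ACLY KO libraries also differ widely in markers of other cells. WT replicate 4 has no ACLY KO library of its number. With 3 against 4 libraries, intervals of scarce members such as Aldoc and Ldhb are wide.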
